A study of Mus musculus with 4 samples.

Results

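The genes described here are 10 transcripts of the immediate-early response and its best-known controller: Egr1, Egr2, Egr3, Ier2, Ier3, Ier5, Nr4a1, Nr4a2, Arc and Srf. They were chosen by name, and each name matched 1 of the 55267 entries of the deposited expression table. RNA was sequenced from cultured muscle stem cells (MuSCs), the Pax7-expressing progenitors of adult skeletal muscle, taken from 9-week-old female mice that carry the Pax7-EGFP transgene (C57BL/6N(Tg(Pax7-EGFP)Tajb)). The cells were sorted for the GFP reporter after a day in culture, grown at 3% O2, and kept for 6 h in serum-free medium with 200 ng/mL of soluble BMPR-1A-Fc, a decoy receptor that binds BMPs. The BMP6 group then received 100 ng/mL BMP6 for 1 h and the control group the vehicle, 4 mM HCl with 0.1% BSA, so the controls also carry the decoy receptor and the starvation. Each group holds 2 libraries, named biological replicates 1 and 2, and the labels give the same number to 1 BMP6 and 1 control library as a shared batch. The number of animals behind a library was not given in the sources used here.

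Immediate-early genes are transcribed within minutes of a stimulus, without new protein synthesis, and most of their transcripts are short-lived. The classic route runs from growth factor receptors through RAS, RAF, MEK and ERK to ternary complex factors, which sit beside SRF on CArG boxes. A second route runs through CREB on cyclic AMP response elements. BMPs signal differently, through receptor kinases that phosphorylate SMAD1, SMAD5 and SMAD9, which enter the nucleus with SMAD4. EGR proteins are zinc finger transcription factors, NR4A proteins are orphan nuclear receptors, and IER2 and IER5 are small nuclear regulators. IER3 is a stress-inducible protein linked to cell survival, and ARC is a cytoskeletal protein best known at synapses. SRF is the transcription factor that many of these genes answer to. The comparison asks which of these genes change within the first hour of BMP6.

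Promoter windows from RefSeq were available for 6 of the 10 genes, namely Egr2, Ier3, Ier5, Nr4a1, Nr4a2 and Srf. Each window holds the 250 bases before and the 50 bases after a transcript start on build GRCm38.p6, which is not the build of the expression files (GRCm39), so the 2 sets of coordinates are not to be mixed. The windows of 4 genes are shown. Ier3 was the 1 gene of these 6 that passed the test. Srf, Egr2 and Nr4a1 did not pass, and their windows hold some of the letters marked below. Ier5, whose window holds none of them, did not pass either, and Nr4a2, whose window holds some, was not tested. A link between these letters and the response to BMP6 was not tested. Capitals mark CArG boxes (CC, then 6 letters that are A or T, then GG), cyclic AMP response element cores (TGACG), ETS sites (CCGGAA) and GC-rich SMAD sites (GGCGCC), each searched on both strands, so that CGTCA is TGACG read on the other strand. The Ier3 window lies at chr17:35821463-35821762 on the plus strand, Srf at chr17:46556113-46556412 on the minus strand, Egr2 at chr10:67537619-67537918 on the plus strand (the third of its 5 windows), and Nr4a1 at chr15:101266596-101266895 on the plus strand.
Ier3: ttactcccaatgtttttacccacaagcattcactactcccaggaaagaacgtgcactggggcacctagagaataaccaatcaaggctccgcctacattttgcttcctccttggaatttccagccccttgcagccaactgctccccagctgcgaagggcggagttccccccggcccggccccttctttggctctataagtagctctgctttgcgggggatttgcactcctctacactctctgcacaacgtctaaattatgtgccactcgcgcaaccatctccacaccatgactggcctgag
Srf: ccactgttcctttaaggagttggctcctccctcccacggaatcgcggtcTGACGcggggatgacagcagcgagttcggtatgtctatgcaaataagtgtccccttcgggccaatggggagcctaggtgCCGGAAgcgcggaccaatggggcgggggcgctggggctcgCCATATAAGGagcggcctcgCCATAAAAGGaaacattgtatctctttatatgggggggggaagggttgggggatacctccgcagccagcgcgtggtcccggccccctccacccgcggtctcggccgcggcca
Egr2: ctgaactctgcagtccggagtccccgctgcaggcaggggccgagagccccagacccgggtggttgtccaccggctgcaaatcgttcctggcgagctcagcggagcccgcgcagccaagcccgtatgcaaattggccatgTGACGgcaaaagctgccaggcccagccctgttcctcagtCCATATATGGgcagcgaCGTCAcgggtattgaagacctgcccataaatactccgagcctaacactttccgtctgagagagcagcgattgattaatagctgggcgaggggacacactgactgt
Nr4a1: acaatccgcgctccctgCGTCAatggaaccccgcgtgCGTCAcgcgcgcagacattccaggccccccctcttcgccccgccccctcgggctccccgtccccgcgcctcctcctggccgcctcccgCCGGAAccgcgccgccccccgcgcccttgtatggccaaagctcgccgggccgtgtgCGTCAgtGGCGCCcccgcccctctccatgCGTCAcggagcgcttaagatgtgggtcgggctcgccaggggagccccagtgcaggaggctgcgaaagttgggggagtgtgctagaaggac

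The Srf window held 2 CArG boxes, 1 cyclic AMP response element core and 1 ETS site. In Egr2, 4 of the 5 windows held a CArG box, and the window shown also held 2 such cores. Windows 3, 4 and 5 overlap and hold the same box. Window 2, not shown, holds another box and 3 ETS site matches that overlap in part. Nr4a1 had 4 such cores, 1 ETS site and 1 GC-rich SMAD site, and Nr4a2 had 4 cores and 1 GC-rich SMAD site. These 2 genes have 1 window each but transcripts with different starts, so not every start was searched. Neither the Ier3 nor the Ier5 window held any of the searched letters. Among all 32851 windows of the table, 1.63% held a CArG box, 20.8% a cyclic AMP response element core, 14.9% an ETS site and 11.9% a GC-rich SMAD site. The full cyclic AMP response element (TGACGTCA, 1.79% of all windows), the EGR site (GCGTGGGCG, 0.612%) and the SMAD palindrome (GTCTAGAC, 0.213%) were in no window of the 6 genes. A match describes letters in this stretch, not binding, and its absence says nothing of other positions.

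Expression is given as TPM, a level scaled to transcript length and to the depth of the library. Levels can be ranked between genes only roughly, because coverage along the transcript was uneven to a different degree in each gene. Coverage of the last exon was 15.1 to 110 times that of the first for Srf and 1.03 to 1.66 times for Arc. The reads rebuilt from the deposited coverage came to between 108157527 and 111985694 per library, and between 13002 and 13203 entries reached 1 TPM in each. The 8 myogenic markers were expressed throughout. Pax7, which marks the stem cells, lay between 8.29 and 11.7 TPM, Myod1 between 536 and 631 TPM, and Myog, a gene of differentiating myoblasts, between 4399.5 and 5471.5 TPM. None of the 8 passed without the replicate block, a term that compares BMP6 with control within each replicate number, from Des at -0.24 to Pax7 at 0.17 on the log2 scale, and Des, which encodes the filament protein desmin, was lower with it (adjusted p = 0.0312). The summed endothelial markers stayed between 0.00878 and 0.298 TPM, with Kdr at 0 throughout. Summed immune markers ran from 0.993 to 1.79 TPM in the BMP6 libraries and from 1.24 to 1.36 TPM in the controls, and summed mural markers from 5.31 to 5.49 and from 5.00 to 5.02 TPM. The fibroblast list, led by Col1a1 and Col3a1, which myogenic cells can also express, summed to 166 and 105 TPM with BMP6 and to 174 and 125 TPM in the controls, with Pdgfra at no more than 0.164 TPM, and its 3 tested genes ran from Col1a1 at -0.24 to Dcn at 0.01 on the log2 scale without a call. As a check of the treatment, 4 of 5 known BMP targets (Id1, Id2, Id3 and Smad7) rose, between 1.26 for Id2 and 2.46 for Id3 on the log2 scale, and all 5 did with the block. For Smad6, an inhibitory SMAD, the adjusted p was 0.270 without that block and 0.00169 with it.

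In the unstimulated cells the 10 genes ran from abundant to barely detectable. Egr1 was highest, at 75.6 and 66.0 TPM in control replicates 1 and 2, followed by Ier2 at 42.0 and 44.6 TPM. Ier5, at 12.4 and 12.8 TPM, and Ier3, at 10.5 and 11.4 TPM, came next without overlap. Nr4a1 at 3.23 and 2.55 TPM and Egr2 at 2.83 and 2.93 TPM overlapped each other, as did Srf at 1.67 and 2.12 TPM and Arc at 1.40 and 2.03 TPM. Nr4a2 followed at 0.773 and 0.914 TPM, and Egr3 was last at 0.0656 and 0.119 TPM. BMP6 changed this order at 2 places: Ier3 stood above Ier5 in both BMP6 libraries, and Arc stood above Egr2, Nr4a1 and Srf in both.

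**Figure D1:**
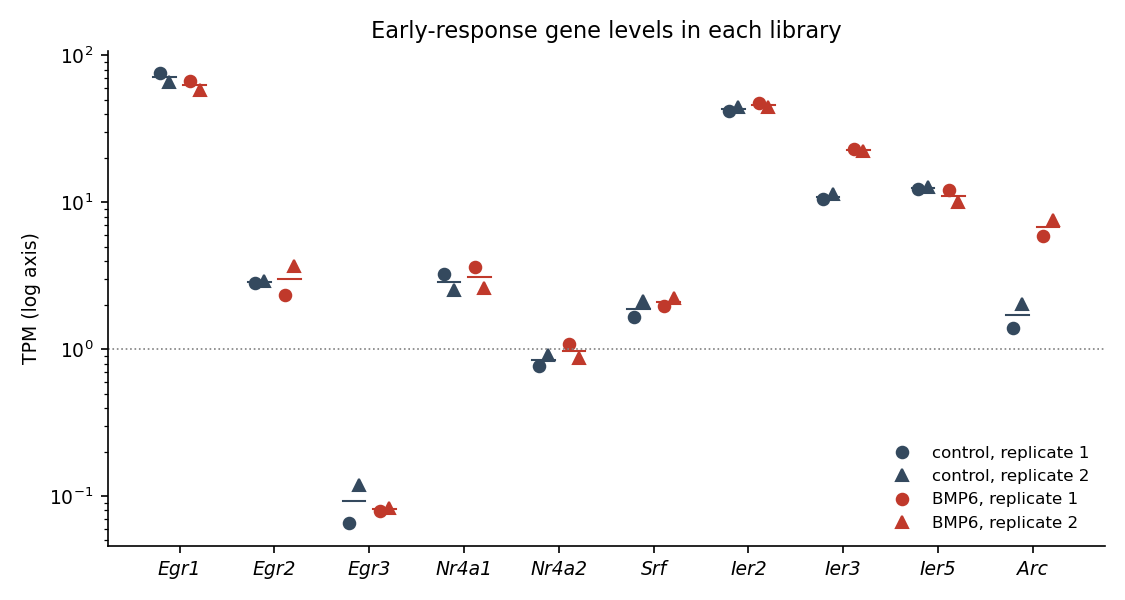
TPM on a log axis for the 10 genes in each of the 4 libraries, with controls in dark blue, BMP6 in red, circles for replicate 1, triangles for replicate 2 and a short line at each group mean. The dotted line is the filter of 1 TPM on the mean, and Arc and Ier3 are the genes whose BMP6 libraries stand clear above the controls.

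Differences were tested with limma on log2(TPM + 1) across the 13128 entries with a mean of at least 1 TPM, and p-values were adjusted over all of them. Of the 10 genes 8 were tested, and Egr3 and Nr4a2 fell below the filter. Arc and Ier3 rose at an adjusted p under 0.1, which 0.236% of all tested entries did, and none of the 8 fell, against 0.00762% of all entries. On the log2(TPM + 1) scale Arc alone also met a fold of at least 2, as did 0.206% of tested entries. The study's methods require that fold, but took it from DESeq2 on counts. Ier3 stood at 0.99 on the scale used here, with a ratio of mean TPM of 2.08. With the replicate block the same 2 genes rose and none fell, although 1.23% of all entries then rose and 0.404% fell. The remaining 6 tested genes had log2 differences between -0.18 and 0.11. Their 95% intervals together reached from -0.52 to 0.53. A rise of more than 1.45-fold on the log2(TPM + 1) scale thus lay outside every one of these intervals. This bound holds for that scale and fit only, since the added 1 shrinks folds at low TPM. In a fit of the rebuilt reads (voom, no block) the upper bound was 0.71 for Nr4a1, 0.68 for Srf and 0.61 for Egr2. With the replicate block, on the log2(TPM + 1) scale, the 95% intervals were -0.30 to 0.34 for Egr2 and -0.09 to 0.26 for Ier2. They were -0.41 to 0.06 for Ier5, -0.19 to 0.35 for Nr4a1 and -0.18 to 0.40 for Srf. Of these 6 genes only Egr1 had a block interval without 0 (-0.33 to -0.02), at a limma adjusted p of 0.328. The median log2 difference was 0.08 over the 8 genes and 0.02 over all tested entries.

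Arc encodes a protein of retrotransposon origin that is made at active synapses, assembles into capsid-like particles and takes part in receptor trafficking. Its level was 5.87 and 7.63 TPM in BMP6 replicates 1 and 2, against 1.40 and 2.03 TPM in the matching controls. Both BMP6 libraries lay well above both controls, and the rebuilt reads behind these levels were 1125 and 1401 against 275 and 382. The mean rose from 1.72 ± 0.442 to 6.75 ± 1.24 TPM (SD, n = 2 per group), a ratio of 3.93. In bulk RNA of this kind, more Arc-expressing cells and more Arc RNA per cell cannot be told apart. On the log2(TPM + 1) scale the difference was 1.51 (SE 0.19, 95% interval 1.04 to 1.98, limma adjusted p = 0.0963), and within the pairs it was 1.52 and 1.51. By size this was the 22nd largest rise among the 13128 tested entries. The call sits close to the threshold: the adjusted p was 0.127 without BMP6 replicate 2, 0.190 without control replicate 1, 0.130 with voom on the rebuilt reads and 0.000254 with the replicate block.

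The Arc gene lies on chromosome 15 from 74540932 to 74544419 on the minus strand of GRCm39, overlaps no other annotated gene, and shares no stretch of 100 bases at 95% identity with another gene's transcripts. Exon 1, of 2006 bases, holds the whole coding sequence, and the exons after it are 3′ untranslated. Mean coverage of exon 1 was 36.5 and 44.7 reads per base with BMP6 and 7.44 and 11.9 in the controls. The last exon had a coverage of 37.8 and 48.3 with BMP6 and 12.3 and 13.6 in the controls, so both ends of the transcript were higher in both pairs. Its 2 annotated transcripts share their ends and differ by 3 bases at the start of exon 2, which is 140 or 137 bases long. The shorter form was assigned 49.3% and 46.4% of Arc TPM in the BMP6 libraries and 23.9% and 32.7% in the controls. The shares do not overlap between the groups, but they rest on an assignment across 3 bases and were not tested.

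Ier3 lies on chromosome 17 from 36132576 to 36133815, plus strand, with 2 exons that both hold coding sequence. Its level was 23.1 and 22.4 TPM with BMP6 and 10.5 and 11.4 TPM in the controls. The groups were far apart relative to their spread, with means of 22.7 ± 0.505 and 10.9 ± 0.603 TPM (SD, n = 2 per group) and a ratio of 2.08. The log2(TPM + 1) difference was 0.99 (SE 0.12, 95% interval 0.71 to 1.27, limma adjusted p = 0.0721), and it was 1.06 in pair 1 and 0.92 in pair 2. Because 1 is added to each TPM, the value stops just short of the 2-fold line, and with 0.1 added in its place it was 1.05. With a library left out the adjusted p was 0.146 without BMP6 replicate 1, 0.101 without BMP6 replicate 2, 0.299 without control replicate 1 and 0.166 without control replicate 2. It was 0.179 with voom and 0.000771 with the replicate block.

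Coverage of Ier3 exon 2, the longer exon, was 158 and 151 reads per base with BMP6 and 76.9 and 76.2 in the controls, a ratio of 2.07 in pair 1 and 2.00 in pair 2. Exon 1 was less even, at 98.1 and 73.2 against 31.8 and 47.6 reads per base, with ratios of 3.12 and 1.55. A later annotation (GENCODE M39) places an antisense gene, Gm66231, across Ier3, and the libraries were unstranded, so reads from that partner cannot be told apart from Ier3 reads. The same holds for antisense genes across Egr2 (Gm66196), Nr4a1 (Gm63180 and Gm63176) and Srf (Gm65094), and genes on the same strand overlap Ier5 (Gm69473), Nr4a1 (Gm56721) and Srf (Mir6976), so the levels of these genes carry this limit too.

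**Figure D2:**
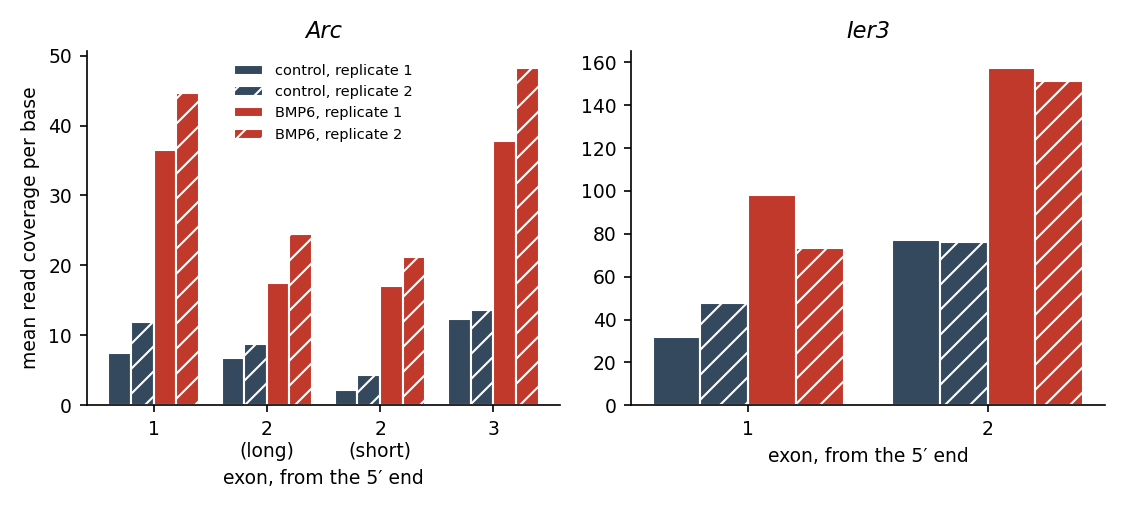
Mean read coverage per base of each Arc and Ier3 exon in the 4 libraries, controls in dark blue and BMP6 in red, with hatching for replicate 2, not scaled for depth. Arc exon 2 is drawn for each of its lengths of 140 and 137 bases, and in every exon both BMP6 bars stand above both control bars.

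Egr1, the zinc finger factor most often used as a readout of ERK signalling, was abundant in both groups and showed no rise. Its level was 66.5 and 58.4 TPM with BMP6 and 75.6 and 66.0 TPM in the controls. It was lower with BMP6 in both pairs, as were 25.7% of all tested entries, but the groups overlapped, because BMP6 replicate 1 exceeded control replicate 2. The log2 difference was -0.18 (SE 0.12, 95% interval -0.46 to 0.11, limma adjusted p = 1), with -0.18 in pair 1 and -0.17 in pair 2. In the fit with the replicate block the 95% interval of Egr1 was narrower, -0.33 to -0.02, and lay below 0, but the limma adjusted p was 0.328. The gene lies on chromosome 18 from 34992876 to 34998037 on the plus strand, and its last exon had between 5.87 and 7.25 times the coverage of its first in every library.

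Egr2, a relative of Egr1 known from hindbrain patterning and myelination, moved in opposite directions in the pairs. It was measured at 2.34 and 3.66 TPM with BMP6 and at 2.83 and 2.93 TPM in the controls, so the controls lay between the BMP6 libraries. The log2 difference was 0.02 (SE 0.20, 95% interval -0.46 to 0.51), and it was -0.20 in pair 1 and 0.25 in pair 2. Egr3, which in muscle is known for its part in muscle spindle development, was at 0.0799 and 0.0833 TPM with BMP6 and 0.0656 and 0.119 TPM in the controls. Egr3 had 17 to 29 rebuilt reads per library and was not tested, and a small difference could not be resolved at this depth. Egr2 lies on chromosome 10 from 67373699 to 67378018 and Egr3 on chromosome 14 from 70314652 to 70319999, both on the plus strand.

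Nr4a1, which encodes the orphan receptor NUR77, had 3.61 and 2.62 TPM with BMP6 and 3.23 and 2.55 TPM in the controls. In each pair the BMP6 library was slightly higher, as for 35% of all tested entries, and the groups overlapped. Its log2 difference was 0.08 (SE 0.19, 95% interval -0.38 to 0.53, limma adjusted p = 1). The gene lies on chromosome 15 from 101152150 to 101172676, plus strand, and has 2 transcripts with different starts. The transcript with the upstream start was assigned 50.7% of Nr4a1 TPM in BMP6 replicate 1 and 80.0% in control replicate 1, but 20.3% and 22.4% in replicates 2. This assigned share was higher in both replicate 1 libraries. Exon 2, which lies before the downstream start, was not covered more deeply in both of them. It had 3.24 (BMP6) and 4.33 (control) reads per base in replicate 1 and 3.97 and 3.90 in replicate 2. The shares thus rest on an assignment over a few reads per base and were not tested. Nr4a2, encoding NURR1, a receptor known for dopaminergic neurons, had 1.08 and 0.870 TPM with BMP6 and 0.773 and 0.914 TPM in the controls, with between 173 and 237 rebuilt reads. It was higher with BMP6 in pair 1 and lower in pair 2, and its mean over all libraries, 0.910 TPM, kept it out of the test. It lies on chromosome 2 from 56996842 to 57014015, minus strand.

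Ier2 and Ier5, 2 intronless relatives of one family, stood apart from Ier3, which shares only the name. Ier2 was measured at 47.5 and 44.4 TPM with BMP6 and at 42.0 and 44.6 TPM in the controls, and the BMP6 replicate 2 and control replicate 2 values were all but equal. The log2 difference of Ier2 was 0.08 (SE 0.10, 95% interval -0.16 to 0.33). Ier5 was measured at 12.2 and 10.0 TPM with BMP6 and at 12.4 and 12.8 TPM in the controls. Both BMP6 libraries were below both controls, which held for 11.6% of all tested entries, but the gap of replicate 1 was small. The log2 difference of Ier5 was -0.18 (SE 0.14, 95% interval -0.52 to 0.17, limma adjusted p = 1), with -0.02 in pair 1 and -0.33 in pair 2. Ier2 lies on chromosome 8 from 85387960 to 85389483 and Ier5 on chromosome 1 from 154972107 to 154975382, both on the minus strand with a single exon.

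Srf had 1.98 and 2.24 TPM with BMP6 and 1.67 and 2.12 TPM in the controls. It was higher with BMP6 in both pairs, yet BMP6 replicate 1 stayed under control replicate 2. The log2 difference was 0.11 (SE 0.16, 95% interval -0.28 to 0.50, limma adjusted p = 1), and it was 0.16 in pair 1 and 0.06 in pair 2. The gene lies on chromosome 17 from 46859255 to 46867101 on the minus strand. Its first exon, of 848 bases, had a coverage of no more than 1.46 reads per base in any library, while the last, of 850 bases, had between 22.0 and 27.2. The ratio of last to first exon ran from 15.1 to 110 over the libraries, whereas for Arc it ran from 1.03 to 1.66.

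**Figure D3:**
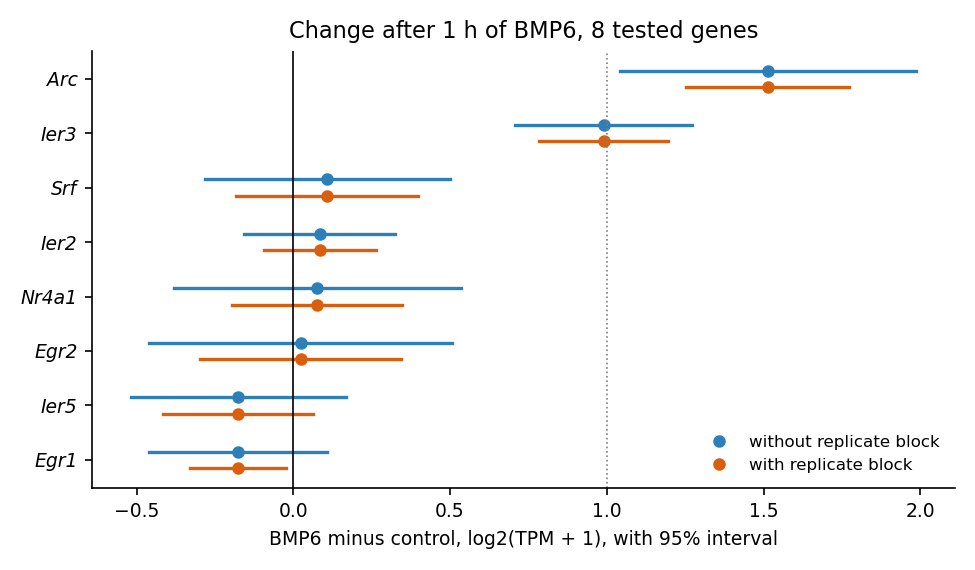
BMP6 minus control difference on the log2(TPM + 1) scale for the 8 tested genes, as points with 95% intervals, without the replicate block in blue and with it in orange. The dotted line marks a 2-fold change. Arc (1.51) and Ier3 (0.99) stand to the right, and the intervals of the other 6 genes without the block all include 0. With the block the interval of Egr1 lies below 0.

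Across the 8 tested genes, 2 had both BMP6 libraries above both controls, where 16.6% of all tested entries did. Another 1 had them below, where 11.6% did, and 5 overlapped. Within the pairs 4 were higher in both (35% of all tested entries), 2 lower in both (25.7%) and 2 mixed. With 2 libraries against 2, a two-sided exact permutation test of a single gene cannot give a p below 0.333, so none was used. The difference between the replicate numbers was wide in these libraries: 19.8% of all tested entries differed between replicates 2 and 1 at an adjusted p under 0.1. Of the 8 genes Arc was the 1 that did so, with 0.33 more on the log2 scale in replicate 2 (limma adjusted p = 0.0964). For Egr1 this replicate difference was -0.19 (adjusted p = 0.104) and for Nr4a1 -0.30 (adjusted p = 0.135), sizes that exceed their BMP6 differences, for Egr1 only slightly. The replicate difference was also the larger for Egr2 (0.26) and Srf (0.17), but not for Arc, Ier2, Ier3 and Ier5.

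The relatives and direct partners gave no call without the block. Egr4 and Nr4a3, the remaining members of their families, were close to 0, with at most 0.0151 TPM and 0.0659 TPM. Ier5l, the closest relative of Ier5, had 1.84 and 5.13 TPM with BMP6 and 1.33 and 2.51 TPM in the controls, a log2 difference of 0.54 that was smaller than its replicate difference of 0.85 (adjusted p = 0.0115). Nab1 and Nab2, which encode corepressors of EGR proteins, had log2 differences of -0.05 and 0.01. Among the retinoid X receptors, with which NR4A1 and NR4A2 can pair, Rxra had a log2 difference of 0.08.

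Rxrg was at 9.65 and 8.91 TPM with BMP6 and 6.04 and 6.55 TPM in the controls, and Rxrb at 9.67 and 12.1 TPM against 16.6 and 15.7 TPM. Both pairs of groups were apart, in opposite directions, with log2 differences of 0.50 for Rxrg and -0.53 for Rxrb. Their adjusted p was 1 without the replicate block. With it Rxrg was higher (adjusted p = 0.0839) and Rxrb lower (adjusted p = 0.0717).

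No gene of the machinery upstream passed the test. Of 4 tested SRF cofactors none passed with or without the block, from Mrtfa at -0.23 to Elk3 at 0.18 on the log2 scale, and the median was 0.11. Of 20 tested genes of the RAS, RAF, MEK, ERK, RSK and CREB routes none passed with or without the block, from Hras at -0.16 to Braf at 0.34, with a median of 0.02, the same as over all tested entries. These are transcript levels and say nothing of the phosphorylation that carries the signal. Of 15 tested cytoskeletal SRF targets none passed without the block, and 10 had negative and 5 positive differences, from Zyx at -0.30 to Tagln at 0.16, with a median of -0.05. With the block Actc1 (-0.20, adjusted p = 0.0320) and Zyx (-0.30, adjusted p = 0.0935) were lower.

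Among 7 tested genes that are commonly read as ERK output, none passed without the block, and the median log2 difference was -0.04. Spry2, a feedback inhibitor of receptor tyrosine kinase signalling, had 53.1 and 52.6 TPM with BMP6 and 30.7 and 25.8 TPM in the controls. That is a log2 difference of 0.88, with an adjusted p of 0.107 without the block and 0.00101 with it. Phlda1 also rose with the block (0.60, adjusted p = 0.0308). Dusp6, an ERK phosphatase, had the lowest value of the list, 2.60 and 2.76 TPM against 4.11 and 4.23 TPM, at -0.49 on the log2 scale and an adjusted p of 0.120 with the block. Spry2 and Dusp6 thus lay on opposite sides with their groups apart.

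The other early-response genes were likewise divided. Of 26 such genes 24 were tested and 4 rose: Klf10, a zinc finger repressor (1.80), Ccn2, a matricellular growth factor (1.66), Junb, an AP-1 subunit (1.39), and Dusp1, a MAP kinase phosphatase (0.90). The median of the list was 0.17 on the log2 scale, beside 0.02 for all tested entries. With the block 8 rose, adding Klf4 (0.57), Ccn1 (0.44), Gadd45b (0.97) and Sgk1 (0.42) at adjusted p between 0.000555 and 0.0956, and Myc fell (-0.45, adjusted p = 0.0303). Fos, the partner most often measured with Egr1, had 47.5 and 36.7 TPM with BMP6 and 39.3 and 30.1 TPM in the controls, a log2 difference of 0.27 beside a replicate difference of -0.37. Zfp36, which encodes an mRNA decay factor, was lowest at -0.51 (adjusted p = 1, and 0.154 with the block).

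**Figure D4:**
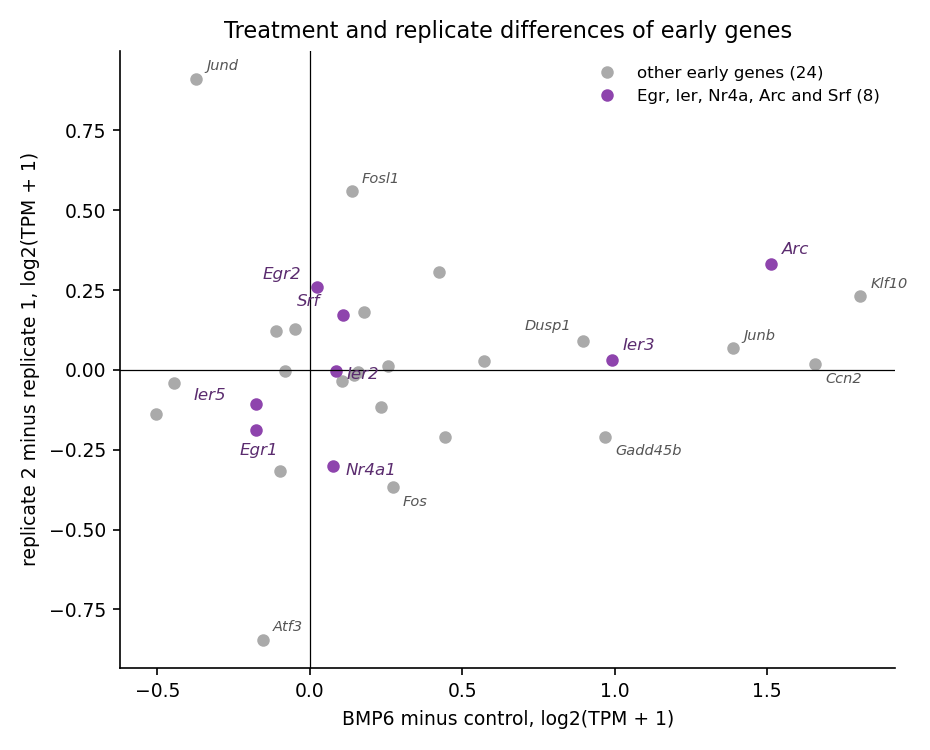
BMP6 minus control difference on the horizontal axis against the replicate 2 minus replicate 1 difference on the vertical axis, both on the log2(TPM + 1) scale, for the 8 tested genes in purple and 24 other early genes in grey. Arc and Ier3 lie to the right beside Klf10, Ccn2, Junb, Dusp1 and Gadd45b, while Egr1, Egr2, Ier2, Ier5, Nr4a1 and Srf lie near 0 on the horizontal axis.

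Arc is widely used as a mark of neuronal activity, so other activity genes and neuronal markers were read beside it. Npas4, Nptx2 and Syt4 had at most 0.0328 TPM in any library. The 3 tested activity genes did not pass, from Nrn1 at 0.07 to Bdnf at 0.42 on the log2 scale, with a median of 0.18. The neuronal markers Rbfox3, Snap25, Syt1 and Nefl had at most 0.0236 TPM, with Syt1 at 0 in every library. The summed neuronal list was 119 and 117 TPM with BMP6 and 129 and 122 TPM in the controls, nearly all of it Tubb3, a tubulin that is not limited to neurons, and its 3 tested genes ran from Tubb3 at -0.10 to Map2 at 0.20 on the log2 scale without a call. Of the 7 listed neuronal markers, Map2 had 5.70 and 5.91 TPM with BMP6 and 5.24 and 4.65 TPM in the controls, higher in both pairs, and Elavl3 had 2.72 and 2.73 TPM against 2.27 and 3.01 TPM. Their part in the Arc result was not tested. Heat shock genes, which are read as a sign of stress, gave no call among 6 tested, from Hspa1a at -0.27 to Hsph1 at 0.14, with a median of -0.10.

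The entries whose pattern over the 4 libraries was most like Arc, by the distance between centred log2(TPM + 1) values, were Id4, Cldn9, Zbtb1, Hbegf and Skil, at distances from 0.0892 to 0.232. Arc itself lay 1.55 from a flat pattern on the same scale. Id4 encodes an inhibitor of basic helix-loop-helix factors, Hbegf a ligand of the EGF receptor and Skil a repressor that binds SMADs. Closest to Ier3 were Enc1, Dusp1, Dusp8, Msx1 and Tmem119, at distances from 0.0837 to 0.199, with Ier3 at 0.994 from a flat pattern. Dusp1 and Dusp8 encode MAP kinase phosphatases and Msx1 a homeobox factor. Likeness over 4 libraries is a description and says nothing of shared control.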

How the data were processed

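Smart-seq2 libraries of polyA RNA were prepared without strand information or molecular identifiers, and paired ends were sequenced. Per the study's methods and the submitters' processing notes, the authors aligned reads to GRCm39 with GENCODE M32 using STAR 2.7.11a, sorted them with SAMtools 1.17, and assembled, merged and requantified transcripts with StringTie 2.2.1. The deposited values are TPM and FPKM per gene and, per transcript and exon, a coverage signal. The header shows that the correction for multi-mapped reads was switched off. From the deposited coverage, lengths and a read length of 100 bases, reads per gene were rebuilt. Neighbouring genes were taken from GENCODE M39 on the same build.

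TPM was tested with limma 3.58.1 in R 4.3.3 (moderated linear model with a mean trend) on log2(TPM + 1), for entries with a mean of at least 1 TPM, with Benjamini-Hochberg adjustment and a threshold of 0.1. A call also needed a fold of at least 2 or at most 0.5, the study's thresholds, taken in the main fit on the log2(TPM + 1) scale. Its exclusion of genes by name was not applied but tried as an alternative added later. The scripts were tested on simulated data without a replicate difference, which cannot decide between the fit with the block and the fit without it. The labels name a replicate number as a batch shared by both groups, and deviations of same-numbered libraries correlated (r = 0.563 across genes, which are not independent), so the numbers pair the libraries. The main design has no block, since none is stated for the study's differential test. The study's heatmaps used a paired design, and the block is an alternative. The main fit thus ignores the pairing and leaves the replicate difference in its error. Only the fits with the block compare within the pairs. With the block on log2(TPM + 1) the SE was 0.11 for Arc and 0.09 for Ier3, in place of 0.19 and 0.12. Since separate animals are not documented, p-values measure only the spread between these libraries. The members and gene lists were chosen with earlier results of these data known. Named genes were all 10 members, list genes past the threshold with or without the block, all relatives and partners, the highest and lowest of each list, and the 5 entries nearest in pattern to each member past the threshold. Fos, the remaining markers named by level and the genes named for being near 0 were named after their values were seen. Elk4 and Rps6ka4 were not analysed here. Alternatives covered the pseudocount, filter, block, trend, quantile normalization, FPKM, voom on rebuilt reads and leaving out each library. Reads are not independent molecules.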

Additional observations from a re-analysis of the deposited data

How the results depend on the processing

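Over 14 alternatives Ier3 stayed higher with BMP6 (log2 difference 0.80 to 1.05), and Arc stayed higher over 13 (0.80 to 1.97), but each lost its adjusted p in 7. For Ier3 these were no filter on low values (0.99, adjusted p = 0.381), no trend (0.99, 0.143), voom (1.04, 0.179) and each library left out (0.94 to 1.04, 0.101 to 0.299). For Arc they were a pseudocount of 0.1 (1.92, 0.121) or 5 (0.80, 0.100), no filter (1.51, 1), no trend (1.51, 0.154), voom (1.97, 0.130) and BMP6 replicate 2 or control replicate 1 left out (1.35 each; over the 4 libraries left out 1.35 to 1.68, 0.0478 to 0.190). The sign turned for Egr2 with quantile normalization (-0.0096) and without BMP6 replicate 2 (-0.22 to 0.27 over the libraries left out), for Nr4a1 without BMP6 replicate 1 or control replicate 2 (-0.10 to 0.25) and for Srf without control replicate 1 (-0.0037 to 0.22), none of which passed. With the replicate block, the paired fit, the calls with a fold of 2 were 41 higher and 2 lower, in place of 27 and 0 (41 and 2 at an unadjusted p under 0.05 without it), and 162 and 53 in place of 31 and 1 at any fold; with voom and the block they were 64 and 8, and 196 and 71. The block changed no call of the 8 genes. At a threshold of 0.05 on the adjusted p, neither Arc nor Ier3 passed in the main fit. Arc, with a mean of 4.23 TPM, fell below the filter of 5 TPM, so that alternative is missing for it. Calls with a fold were 16 at a pseudocount of 5, 16 at the filter of 5 TPM, 2 with no filter, 14 without the trend and 13 at a threshold of 0.05; at any fold 19 were higher at the filter of 5 TPM, 33 lower with no filter, 14 higher and 0 lower without the trend, and 13 higher and 0 lower at 0.05. Leaving out each library gave 20 to 33 higher and 2 to 7 lower calls with a fold, and 21 to 37 and 2 to 11 at any fold; the lone library is then assumed to vary like the others. The difference between replicates, 1496 higher and 1099 lower, was 0 and 0 with no filter. Other causes were not tested. With 2 libraries a group, small differences in Egr2, Nr4a1 and Srf could not be resolved.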
